A study of Mus musculus with 18 samples.

Results

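The DNA replication machinery was followed at the transcript level in mouse livers and liver tumours. The 39 genes were taken by symbol from a list of replication and S phase genes, and each symbol was found once among the 54838 genes of the table. Members with a mean under 0.2 TPM over the 18 samples were set aside, which left 35. TPM corrects read numbers for the length of each gene and for the depth of each sample, so levels can be set side by side between genes. The 4 genes set aside were Orc1, Cdc6, Pole2 and Fen1.

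RNA-seq had been made from C57BL/6 mice of 36 weeks in 6 groups of 3 samples. WT tumours and WT non-tumours came from wild type mice given diethylnitrosamine (DEN), a carcinogen activated in hepatocytes, once at 25 mg/kg by intraperitoneal injection on postnatal day 12. GKO tumours and GKO non-tumours came from miR-181ab1 knockout mice under the same treatment, and normal livers came from untreated WT and GKO mice. The knockout is global, so every cell type of the liver and of the tumours lacked the cluster, and the labels tie no tumour to a non-tumour of the same animal. Nothing in the labels says whether 2 samples of a group came from separate animals, so the p-values measure the spread between these samples.

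Replication starts with licensing, in which the origin recognition complex, Cdc6 and Cdt1 load the ring of Mcm2 to Mcm7 onto DNA. In S phase Mcm10, Cdc45 and the GINS complex turn that ring into an active helicase, polymerases alpha, delta and epsilon copy the strands, and the sliding clamp Pcna, loaded by replication factor C, holds the polymerases in place. Most of these genes are transcribed by E2F factors once Rb proteins release them. Adult hepatocytes are mostly quiescent and re-enter the cycle on regeneration or in tumours.

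The promoters of the members are shown because the E2F word was far more common among them than among genes at large. RefSeq promoters of GRCm38.p6, 250 bases before to 50 bases after a start site, were given for 33 of the 39 members. They were searched on both strands for TTTCCCGC, TTTCGCGC, TTTGCCGC and TTTGGCGC, the letters of the E2F consensus. One or more of these words stood in the promoters of 14 members (42.4%), against 2.60% of the 27025 genes of the promoter table. CCAAT, the word bound by NF-Y, was found in 19 members (57.6%), against 41.1% of genes, and 9 members had both. TTTGAA or TTCGAA, the CHR words of late cell cycle genes, were found in 6 members (18.2%), against 21.7% of genes. The windows below are 30 bases long, 5′ to 3′ on the strand of the gene, with the E2F words in capitals. In Mcm5 and Mcm6 a word on each strand shares bases with the other, and in Rfc3 words on both strands lie side by side.
Mcm3 (chr1:20820275-20820304, minus strand): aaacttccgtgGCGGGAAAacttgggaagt
Mcm5 (chr8:75109345-75109374, plus strand): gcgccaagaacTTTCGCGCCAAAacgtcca
Mcm6 (chr1:128359797-128359826, minus strand): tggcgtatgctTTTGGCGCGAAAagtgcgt
Mcm7 (chr5:138171849-138171878, minus strand): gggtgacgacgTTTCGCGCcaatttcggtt
Cdt1 (chr8:122568035-122568064, plus strand): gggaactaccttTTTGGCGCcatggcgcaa
Lig1 (chr7:13278841-13278870, plus strand): cgccaaagtgcGCGCGAAAtctgtgtggcg
Rfc3 (chr5:151651200-151651229, minus strand): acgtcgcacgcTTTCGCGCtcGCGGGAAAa
Uhrf1 (chr17:56304117-56304146, plus strand): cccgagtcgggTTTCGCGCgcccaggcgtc

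The deleted cluster makes miR-181a and miR-181b from chromosome 1 (GRCm38.p6, plus strand, 137966468 to 137966490 and 137966650 to 137966673). Their seeds, bases 2 to 8 in capitals, are the same, and are shown because matches to the full seed were searched for in 3′ UTRs. Shorter matches were not searched for, so a member without a full match may still hold a shorter site.
miR-181a-5p: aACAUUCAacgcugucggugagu
miR-181b-5p: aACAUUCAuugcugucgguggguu
A match to that seed was found in the 3′ UTR of 1 of the 35 members (2.86%). Among 11572 genes that averaged 0.5 TPM or more over the samples and had an annotated 3′ UTR it was found in 2159 (18.7%). The longest 3′ UTRs had a median of 568 bases among the members and 1074 bases among all of those genes, so the members offered less sequence for a match. The single match, in Pcna on chromosome 2 (132249390 to 132249396, minus strand), is shown with its neighbouring bases.
Pcna 3′ UTR site (chr2:132249378-132249407, minus strand): ttttgttaacaTGAATGTttctgctttaca
The cluster itself could not be used to check the genotype. Mir181a-1 was at 0 in 17 of the 18 samples, with 1 read in GKO tumour 3, and Mir181b-1 was at 0 in all of them, WT samples included.

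Depth was between 11930428 and 20752391 reads on genes per sample, recovered from TPM and gene lengths. The summed level of 10 hepatocyte markers was 171410 to 208940 TPM in the 6 tumours and 63771 to 96204 TPM in the 12 livers, so that all 18 samples carried hepatocyte RNA. The higher sum was not shared by all markers. Between tumours and non-tumours 6 had positive and 4 negative log2 fold changes in each genotype. In limma Alb rose in WT tumours, against 2.16% of all genes, and Alb, Apoa1 and F2 rose in GKO tumours, against 7.75%. WT tumour 3 had 19576183 reads, more than all but 1 sample, and its hepatocyte marker sum of 171410 TPM was the lowest of the 6 tumours. No pair of replicates was as close as sampling noise would make it. WT tumours 1 and 2 were the closest pair of all, with a chi-square per degree of freedom of 24.4. The other pairs of tumours within a group were at 146 to 277. Levels on the log2 scale correlated at 0.989 between WT tumours 1 and 2 and at 0.962 to 0.977 in those other pairs. The labels do not say whether WT tumours 1 and 2 came from separate animals.

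In normal livers replication genes were mostly low. The mean over the 6 normal livers was under 1 TPM for 15 of the 35 members, 1 to 5 TPM for 13 and 5 TPM or more for 7. The highest were Mcm10, Gins4, Pcna, Tk1, Dut and Rfc2, while Mcm2, Mcm3, Mcm4, Mcm5 and Mcm6 had means under 1 TPM in WT normal livers, against 5.69 TPM for Mcm7 of the same ring. Over the 6 tumours only 4 members had a mean under 1 TPM and 13 had a mean of 5 TPM or more. The median of the members' means went from 1.69 TPM in normal livers to 2.16 TPM in non-tumours and 4.37 TPM in tumours. In bulk tissue a smaller number of cycling cells and less RNA per cycling cell cannot be told apart.

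**Figure D1:**
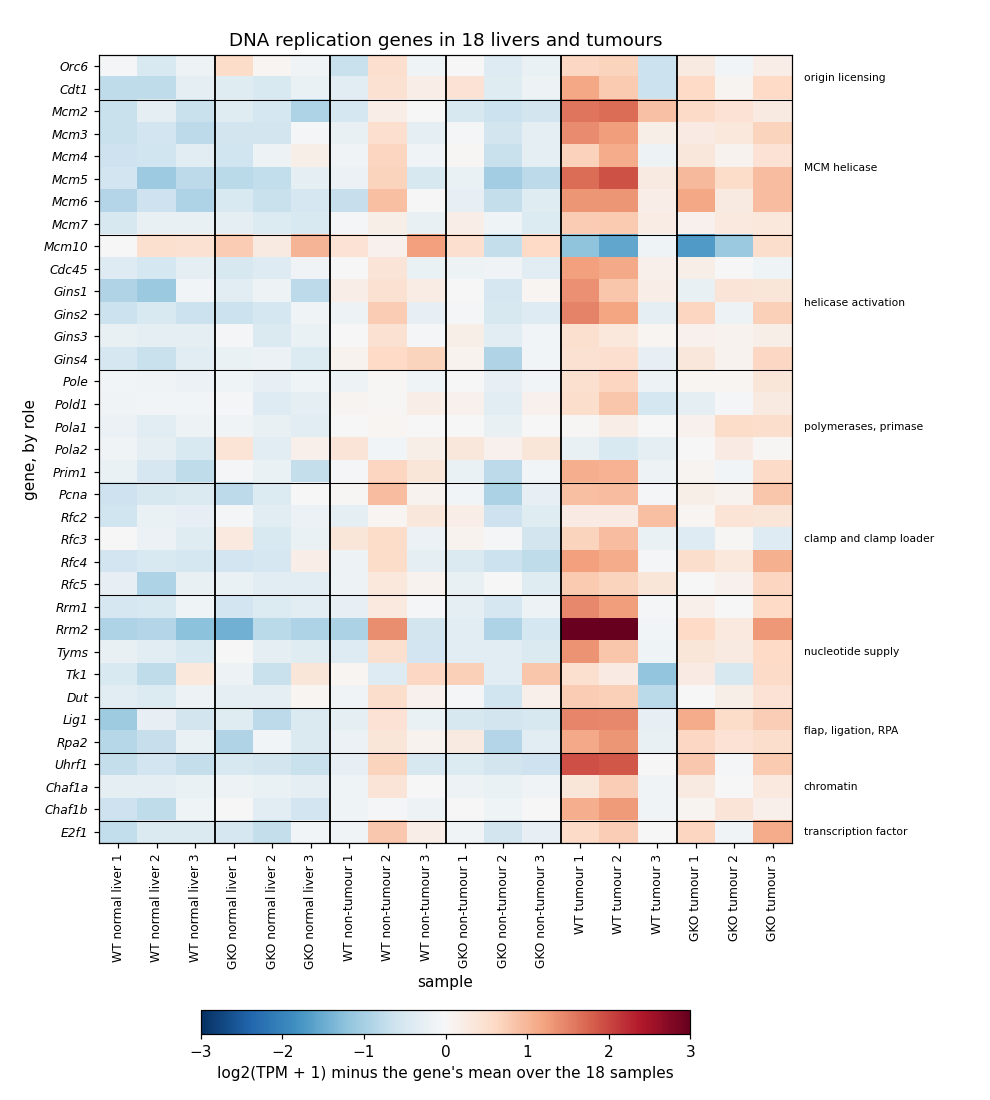
Each row is 1 of the 35 replication genes, ordered by role, and each column is 1 of the 18 samples, with groups parted by black lines. The colour is log2(TPM + 1) minus the mean of that gene over the 18 samples. WT tumours 1 and 2 are red for most genes, WT tumour 3 and the GKO tumours are paler, and Mcm10 runs the other way.

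WT tumours were compared with WT non-tumours to ask which replication genes differ between tumour and the liver around it. Of 32 members tested, 1 rose at an adjusted p under 0.05, against 2.16% of all 14003 genes, and none fell, against 2.07%, so that 4.23% of all genes were called in either direction. That gene was Mcm2, a subunit of the MCM helicase. Mcm2 was at 5.91, 6.27 and 3.19 TPM in the WT tumours and at 0.560, 1.58 and 1.24 TPM in the WT non-tumours. Every tumour was above every non-tumour, with a log2 fold change of 1.52 (SE 0.30, adjusted p = 0.0438, limma).

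The remaining members were mostly higher in WT tumours, with wide errors. The log2 fold change was positive for 28 members and negative for 4, against 47.9% and 52.1% of all genes. Its median was 0.51, against -0.02 over all genes. By the unadjusted p 4 members were higher under 0.05, against 9.31% of all genes, and 2 were lower, against 10.6%. Groups did not overlap for 3 members that were higher in tumours (Mcm2, Mcm7 and Rfc5), against 11.0% of all genes. They did not overlap for 2 that were lower (Mcm10 and Pola2), against 13.9%. The share of members called was thus near the background.

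By role, all 6 MCM subunits had a positive log2 fold change, with a median of 0.91. Among nucleotide supply genes 4 of 5 did, with a median of 0.84. All 5 clamp and clamp loader genes did, with a median of 0.42. Polymerase and primase genes had a median of 0.17 over 3 genes, and the helicase activators had one of 0.33 over 6.

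Rrm2, the regulated small subunit of ribonucleotide reductase, shows where the errors came from. It was at 28.8, 29.3 and 2.58 TPM in the WT tumours and at 0.966, 9.06 and 1.60 TPM in the WT non-tumours. WT tumour 3 was below WT non-tumour 2, so the groups overlapped. The log2 fold change of 1.99 had an SE of 0.97 (adjusted p = 0.316, limma). Uhrf1, which brings the maintenance DNA methyltransferase to replicated DNA, was at 5.28, 4.95 and 0.638 TPM in the WT tumours and 0.371, 1.58 and 0.168 TPM in the WT non-tumours.

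The count rested on single samples. Without WT tumour 3, 9 members rose (Cdc45, Chaf1b, Lig1, Mcm2, Mcm3, Mcm5, Rpa2, Rrm1 and Uhrf1) and Mcm10 fell, against 9.68% of all genes called in either direction. The WT tumour group was then WT tumours 1 and 2 alone, the closest pair of replicates. WT tumour 3 was the lowest tumour for most members, so leaving it out raises the tumour means by itself. Without WT tumour 1, WT tumour 2, WT non-tumour 1 or WT non-tumour 3 none was called, and the share of all genes called there is not given here. All 8 macrophage markers had negative log2 fold changes in WT tumours, with a median of -1.26, 0 called in limma and sums of 89.97 to 168 TPM against 148 to 469 TPM, and their part in these values was not tested.

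GKO tumours were compared with GKO non-tumours in the same way, and 7 of 31 members rose, against 7.75% of all 14092 genes. None fell, against 3.97% of all genes, and 11.7% were called in either direction. By the unadjusted p 15 members were higher under 0.05 and none was lower, against 21.6% and 10.1% of all genes. The 7 were the MCM subunits Mcm5, Mcm6 and Mcm2, the nucleotide supply genes Rrm2 and Tyms, the DNA ligase Lig1, which seals Okazaki fragments, and Rfc4, a subunit of the clamp loader. Groups did not overlap for 16 members, all higher in tumours, against 25.7% of all genes, and 12.7% of all genes were lower without overlap. Of the 31, Mcm5, Cdc45, Gins2 and Uhrf1 entered the test through their tumour values alone. Mcm5 is in both counts and Uhrf1 is among the 16. The median log2 fold change was 0.57 over the members and 0.20 over all genes, a difference of 0.37.

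Mcm5 was at 3.23, 2.14 and 3.05 TPM in the GKO tumours and at 0.864, 0.0320 and 0.249 TPM in the GKO non-tumours. Its log2 fold change was 1.50 (SE 0.27, adjusted p = 0.0179, limma). The 0.0320 TPM in GKO non-tumour 2 was a single read, so that level rests on very few counts. Mcm6 was at 5.20, 2.36 and 4.31 TPM in the GKO tumours and 1.34, 0.684 and 1.17 TPM in the GKO non-tumours, with a log2 fold change of 1.23 (SE 0.28, adjusted p = 0.0341, limma). Mcm2 was at 2.38, 2.04 and 1.72 TPM against 0.624, 0.459 and 0.553 TPM, with a log2 fold change of 0.97 (SE 0.19, adjusted p = 0.0210, limma). For all 3 subunits the lowest tumour was above the highest non-tumour. The other 3 subunits, Mcm3, Mcm4 and Mcm7, had log2 fold changes of 0.71, 0.60 and 0.35 and were not called.

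Rrm2 was at 4.80, 3.66 and 8.40 TPM in the GKO tumours and at 2.07, 1.01 and 1.66 TPM in the GKO non-tumours, with a log2 fold change of 1.32 (SE 0.31, adjusted p = 0.0368, limma). Tyms, which makes thymidylate, was at 3.999, 3.67 and 4.92 TPM against 2.10, 2.10 and 1.87 TPM, with a log2 fold change of 0.78 (SE 0.19, adjusted p = 0.0400, limma). Both genes were higher in every tumour than in any non-tumour. Rrm1, the large subunit of the same reductase as Rrm2, had a log2 fold change of 0.57 (SE 0.23) and was not called. The salvage kinase Tk1 had one of -0.29 (SE 0.40).

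Lig1 was at 6.95, 4.35 and 5.14 TPM in the GKO tumours and at 1.65, 1.50 and 1.66 TPM in the GKO non-tumours. Its log2 fold change was 1.30 (SE 0.21, adjusted p = 0.0133, limma). Rfc4 was at 4.02, 3.35 and 6.28 TPM against 1.58, 1.25 and 1.05 TPM, with a log2 fold change of 1.25 (SE 0.24, adjusted p = 0.0229, limma). The other loader subunits tested ranged from -0.08 for Rfc3 to 0.54 for Rfc2. Exons of Rfc4 overlap those of Eif4a2 on the opposite strand over 12.7% of their length, and whether reads were counted by strand is not given in the sources used here.

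Uhrf1 stood next to the threshold, at 1.88, 0.574 and 1.83 TPM in the GKO tumours and 0.240, 0.120 and 0.0582 TPM in the GKO non-tumours (log2 fold change 1.04, SE 0.28, adjusted p = 0.0511, limma). E2f1, the transcription factor of the list, was at 6.18, 3.26 and 8.85 TPM against 3.24, 2.10 and 2.87 TPM, with a log2 fold change of 0.85 (SE 0.32). Of the 7 genes that rose, 3 hold an E2F word in the promoters searched (Lig1, Mcm5 and Mcm6) and 4 hold CCAAT (Mcm2, Mcm5, Mcm6 and Rrm2), close to the 42.4% and 57.6% of all members with a promoter.

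The GKO count also rested on single libraries and on the filter. It was 0 without GKO non-tumour 3, 1 without GKO non-tumour 2 (Lig1), 3 without GKO tumour 1 (Lig1, Mcm5 and Rfc4), 3 without GKO tumour 3 (Lig1, Mcm2 and Rfc4), and 1 without a filter on low values (Lig1), and Mcm5 passed that filter through its tumour values alone, as did Cdc45, Gins2 and Uhrf1. The share of all genes called in these fits is not given here, so a fall in the count cannot be read as particular to the members.

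Markers of other cell types differed in the same samples. Of 8 fibroblast markers 5 rose and 1 fell in GKO tumours, and their summed level was 95.8 to 185 TPM there and 46.1 to 69.4 TPM in GKO non-tumours. The sum of 5 cholangiocyte markers was 37.6, 959 and 549 TPM in the GKO tumours and 30.2 to 53.7 TPM in the GKO non-tumours. The sum of 6 B cell markers was 8.42 to 20.9 TPM against 23.1 to 46.8 TPM, and 2 of them fell. Macrophage sums were 95.9 to 284 TPM and 136 to 789 TPM. Of 8 macrophage markers 3 had positive and 5 negative log2 fold changes, and Marco fell. Of 7 endothelial markers 4 had positive and 3 negative log2 fold changes, and Cdh5 and Pecam1 rose, with sums of 60.7 to 96.2 TPM and 60.9 to 77.4 TPM. Of the fibroblast, cholangiocyte, B cell, macrophage and endothelial markers none was at 0 in all samples of a group, and the part of these cells in the levels of the replication genes was not tested.

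**Figure D2:**
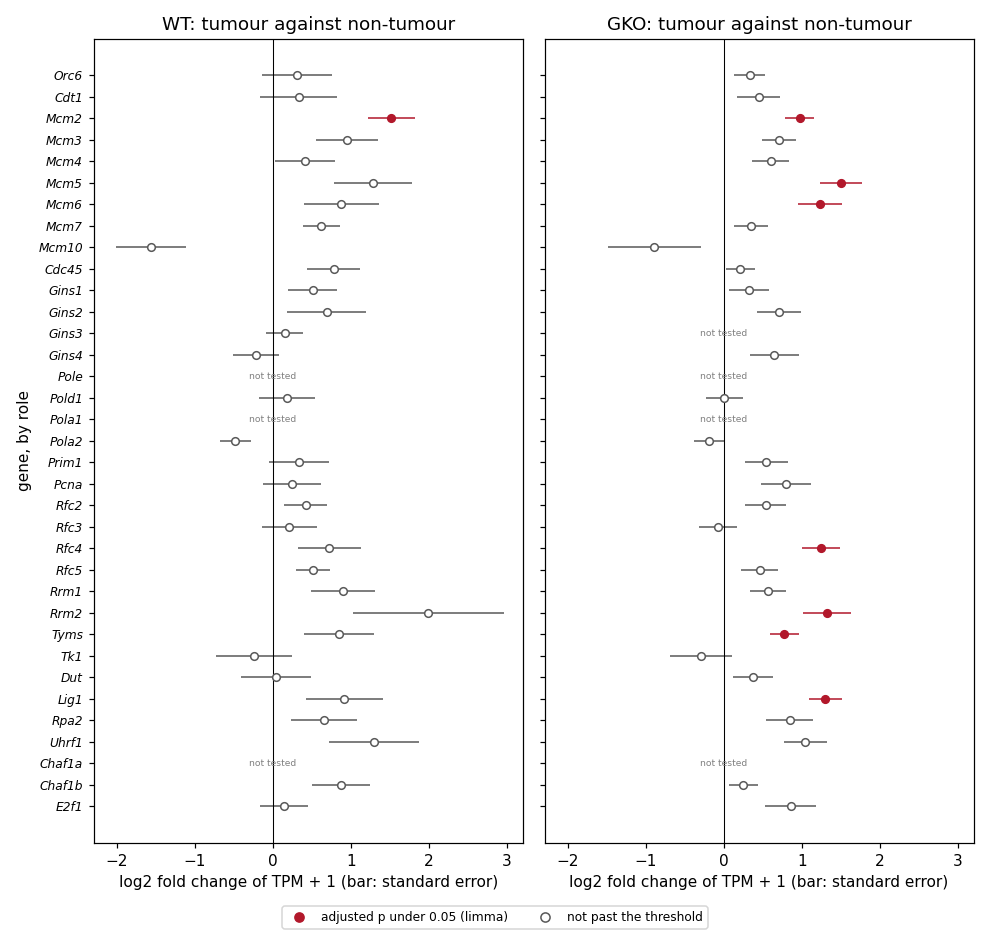
Points are log2 fold changes of TPM + 1 between tumours and non-tumours for each replication gene, in WT mice on the left and GKO mice on the right, with bars for the standard error. Red points passed an adjusted p under 0.05. The only red point in WT is Mcm2 at 1.52, and the 7 in GKO lie between 0.78 and 1.50, with shorter error bars.

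GKO tumours were compared with WT tumours to ask whether loss of miR-181ab1 went with a different level of replication genes. Of 33 members tested 0 passed an adjusted p under 0.05 in limma, against 0.0215% of all 13964 genes. By the unadjusted p 2 members were lower under 0.05, against 3.49% of all genes, and 0 were higher, against 5.37%. The log2 fold change was negative for 28 members and positive for 5, against 40.0% and 60.0% of all genes. Gins3 and Pole were among the 33 through their WT values alone. The median was -0.26 over the members and 0.09 over all genes. All 6 MCM subunits, all 5 clamp and loader genes and both tested chromatin genes, Uhrf1 and Chaf1b, had negative values.

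Mcm2 was the member with the smallest p, at 2.38, 2.04 and 1.72 TPM in the GKO tumours and 5.91, 6.27 and 3.19 TPM in the WT tumours. The groups did not overlap, as for 4.78% of all genes in that direction. The log2 fold change was -0.97 (SE 0.27, adjusted p = 0.416, limma). Cdc45, a part of the active helicase, was at 0.834, 0.628 and 0.486 TPM in the GKO tumours and 2.79, 2.57 and 0.808 TPM in the WT tumours, with a log2 fold change of -0.82 (SE 0.32, adjusted p = 0.537, limma). GKO tumour 1 and WT tumour 3 were nearly equal for that gene. Rfc3 was at 2.85, 4.16 and 2.83 TPM in the GKO tumours and 6.97, 8.46 and 3.36 TPM in the WT tumours, with a log2 fold change of -0.70 (SE 0.33, adjusted p = 0.584, limma).

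Pcna, whose protein the study used to stain proliferating cells, was at 21.2, 20.5 and 34.4 TPM in the GKO tumours and at 36.3, 36.5 and 18.4 TPM in the WT tumours. GKO tumour 3 was close to WT tumours 1 and 2, and WT tumour 3 was the lowest of the 6. The log2 fold change was -0.23 (SE 0.34, adjusted p = 0.862, limma). By staining, the study reported a significantly lower percentage of PCNA-positive cells in GKO than in WT tumours. That percentage and an RNA level in bulk tissue are unlike measures. Reads of Pcna may be shared with near-identical processed copies, of which Pcna-ps2 reached at most 1.94 TPM in any sample. Rrm2 had the largest difference in means, 5.62 ± 2.47 TPM in the GKO tumours and 20.2 ± 15.3 TPM in the WT tumours (SD, n = 3), with a log2 fold change of -1.22 (SE 0.82, adjusted p = 0.693, limma). E2f1 was at 5.83, 6.60 and 3.63 TPM in the WT tumours, and its log2 fold change of 0.11 (SE 0.36, adjusted p = 0.945, limma) was -0.10 without WT tumour 3 and -0.17 without GKO tumour 3.

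The 3 WT tumours were not alike. WT tumours 1 and 2 were both above the 4 other tumours for 27 of 33 members (81.8%), a pattern shown by 15.0% of all genes. The 6 exceptions were E2f1, Gins4, Mcm10, Pola2, Rfc2 and Tk1. The lower of the 2 was above the highest other tumour by 3.43 times for Rrm2, 3.08 times for Cdc45 and 2.63 times for Uhrf1. Over all 18 samples WT tumours 1 and 2 were the highest pair for 24 of 31 members (77.4%), against 7.15% of all genes. WT tumour 3 was the lowest of the 6 tumours for 22 of 33 members (66.7%), against 27.7% of all genes. It was at or below 0.39 times the mean of the GKO tumours for Gins2, Tk1, Cdt1, Pole, Chaf1a, Pola1 and Lig1, and over 1.2 times that mean for Rfc2 (1.59), Mcm2 (1.56), Mcm10 (1.27) and Cdc45 (1.24).

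**Figure D3:**
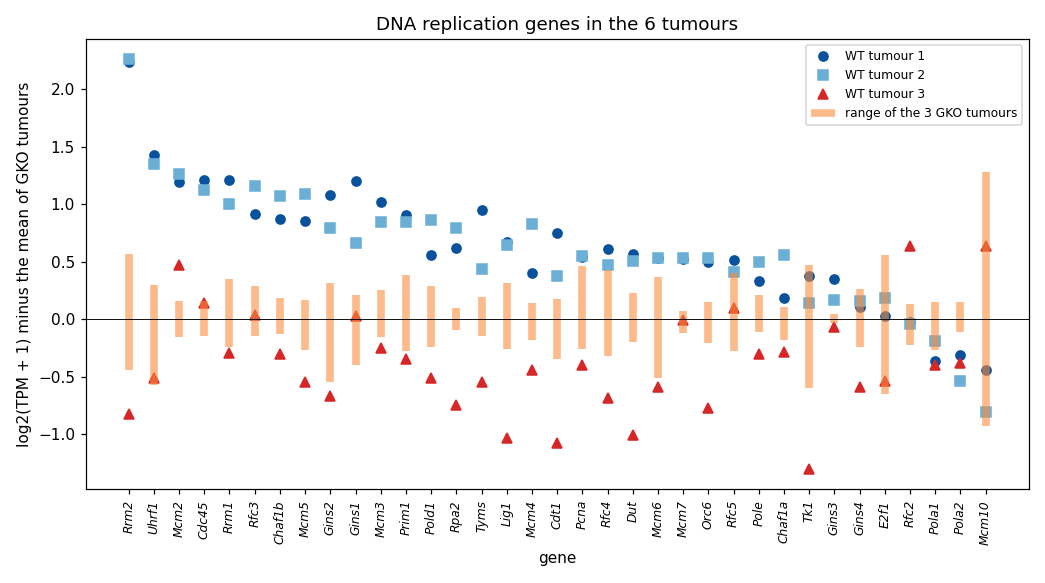
For each of 35 genes, ordered from left to right, symbols show log2(TPM + 1) of each WT tumour minus the mean of the 3 GKO tumours, and orange bars span the GKO tumours. WT tumours 1 and 2 lie above the bars for most genes, by over 2 for Rrm2, while WT tumour 3 lies in or below them for most.

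The licensing factor Cdt1 was at 7.51, 5.58 and 1.41 TPM in the WT tumours and 4.72, 3.00 and 4.69 TPM in the GKO tumours. Gins2, a GINS subunit, was at 3.40, 2.59 and 0.304 TPM in the WT tumours and 1.45, 0.418 and 1.58 TPM in the GKO tumours. Over 67.3% of the exonic length of Gins2 lies under exons of Gse1 on the opposite strand. In both genes the GKO tumours lay between WT tumour 3 and the other WT tumours.

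Without WT tumour 3, 19 of 35 members were lower in GKO tumours by the unadjusted p, against 9.14% of all genes, and 1 fell at the adjusted threshold, Rrm2 with a log2 fold change of -2.25 (SE 0.33, adjusted p = 0.0454, limma), against 0.784% of all genes. The WT group was then WT tumours 1 and 2 alone, the closest pair of replicates, so these results rest in part on how alike that pair was. WT tumour 3 is singled out because many members were lowest in it, so leaving it out makes the fold changes more negative by itself. These results are thus no separate support for a lower level in GKO tumours. Over the alternatives the adjusted p of Rrm2 ran from 0.0454 to 0.987. Fibroblast marker sums were 95.8 to 185 TPM in the GKO tumours and 51.2 to 92.6 TPM in the WT tumours, with 51.2 TPM in WT tumour 3, and cholangiocyte sums were 37.6, 959 and 549 TPM against 44.7, 53.8 and 22.2 TPM, with 0 markers of either list called in limma. Their part in the differences was not tested.

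**Figure D4:**
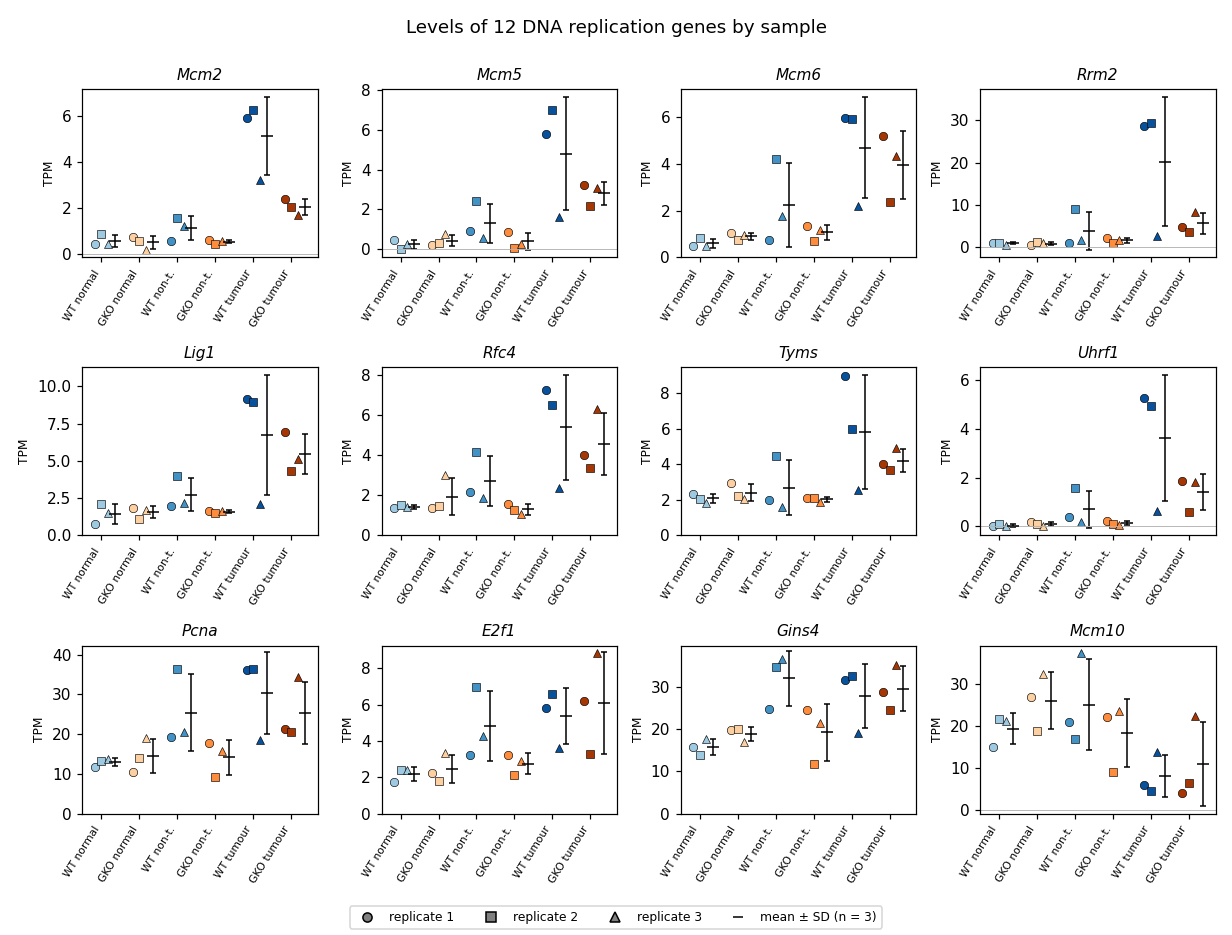
Each panel gives TPM for 1 gene, on a linear axis, in the 6 groups, with a symbol for each replicate number and a black bar for the mean ± SD of 3 samples. In the first 8 panels WT tumours 1 and 2 are the 2 highest samples, at 28.8 and 29.3 TPM for Rrm2. Pcna, E2f1, Gins4 and Mcm10 do not follow that order.

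The genotype difference was next compared between tumours and non-tumours in a single fit of 12 samples. Of 31 members 0 passed an adjusted p under 0.05, against 0.0142% of all genes, and 0 did so by the unadjusted p in limma, against 7.95% of all genes above and 2.57% below 0. The smallest p was that of Gins4, with a difference of 0.86 on the log2 scale (SE 0.44, adjusted p = 0.490, limma). It was -0.54 (SE 0.35, adjusted p = 0.550, limma) for Mcm2 and 0.71 (SE 0.47, adjusted p = 0.555, limma) for E2f1. The median over the members was 0.02, against 0.23 over all genes, and it was -0.20 after the samples were centred on their medians. Without WT tumour 3, 24 of the 31 members had negative and 7 positive differences, and 4 were lower by the unadjusted p (Cdc45, Chaf1b, Mcm2 and Rrm1), against 5.17% of all genes, with 0 past the adjusted threshold. Leaving out WT tumour 3, the lowest tumour for most members, moves these differences down by itself.

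In non-tumours, which had been exposed to DEN, 27 of 30 members had lower means on the log2 scale in GKO than in WT mice, as did 66.5% of all genes, and Mcm5, Cdc45 and Gins2 were among the 30 through their WT values alone. The median log2 fold change was -0.41, against -0.15 over all genes. In limma 0 were called, as were 0 of all 13768 genes, and by the unadjusted p 2 members were lower, against 3.84% of all genes, and 0 were higher, against 1.96%. Groups did not overlap for 7 members, all lower in GKO (23.3%, against 9.32% of all genes, with 3.88% higher): Rfc4, Prim1, Gins4, Pcna, E2f1, Gins1 and Lig1. Some of these gaps were narrow. For E2f1 the highest GKO and the lowest WT non-tumour were both at 3.24 TPM, and for Prim1 they were at 1.44 and 1.48 TPM. Rfc4 was at 1.58, 1.25 and 1.05 TPM in GKO and 2.14, 4.15 and 1.87 TPM in WT non-tumours (log2 fold change -0.65, SE 0.26, adjusted p = 0.643, limma). Prim1, the catalytic subunit of primase, was at 1.25, 0.495 and 1.44 TPM against 1.48, 3.07 and 2.32 TPM (log2 fold change -0.67, SE 0.28, adjusted p = 0.643, limma). Gins4 was at 24.6, 11.6 and 21.5 TPM against 24.7, 34.8 and 36.8 TPM (log2 fold change -0.75, SE 0.32, adjusted p = 0.643, limma), so that GKO non-tumour 1 and WT non-tumour 1 were almost equal. Pcna was at 17.7, 9.25 and 15.8 TPM in GKO and 19.3, 36.5 and 20.5 TPM in WT non-tumours.

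For most members a single library stood at each end of the non-tumours. WT non-tumour 2 was the highest of the 6 non-tumours for 22 of 30 members (73.3%, against 41.7% of all genes), and GKO non-tumour 2 was the lowest for 19 (63.3%, against 42.1% of all genes). WT non-tumour 2 was above WT tumour 3 for 27 of 31 members (87.1%, against 60.0% of all genes). The 4 exceptions were Mcm2, Mcm7, Rfc2 and Rfc5. WT non-tumour 2 also had the lowest B cell marker sum of the 6 non-tumours, 6.38 TPM against 18.2 to 46.8 TPM. Its endothelial sum of 36.2 TPM was the lowest too, against 58.8 to 77.4 TPM, as were its fibroblast, neutrophil and erythroid sums. Its cholangiocyte sum of 76.9 TPM was the highest, against 30.2 to 53.7 TPM. The summed level of 20 mitosis genes was 125.6 TPM there and 6.16 to 10.2 TPM in the other non-tumours. The part of these differences in its levels was not tested.

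WT non-tumours had higher levels than untreated WT normal livers for all 28 members tested, as did 79.7% of all genes, and Mcm5 and Chaf1b were among the 28 through their non-tumour values alone. The median log2 fold change was 0.56, against 0.32 over all genes, a difference of 0.23. Of these members 0 were called in limma, against 0.00744% of all genes, and by the unadjusted p 10 were higher and 0 lower, against 22.4% and 2.04% of all genes. Groups did not overlap for 14 of the 28, against 31.0% of all genes. After the samples were centred on their medians, the median was 0.18, against -0.05 over all genes, and the log2 fold change of Gins4 was 0.59. Gins4 was at 24.7, 34.8 and 36.8 TPM in the WT non-tumours and 15.8, 13.9 and 17.6 TPM in the WT normal livers (log2 fold change 0.96, SE 0.21, adjusted p = 0.117, limma). Gins1 was at 5.14, 6.38 and 5.20 TPM against 1.85, 1.48 and 4.04 TPM (log2 fold change 0.99, SE 0.29, adjusted p = 0.135, limma). Pcna was at 19.3, 36.5 and 20.5 TPM against 11.8, 13.1 and 13.8 TPM (log2 fold change 0.87, SE 0.27, adjusted p = 0.145, limma). For these 3 genes every non-tumour was above every normal liver.

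In GKO mice the same step was smaller. Of 27 members, 17 had positive and 10 negative log2 fold changes, against 65.0% and 35.0% of all genes. The median was 0.08, equal to the 0.08 over all genes, and 0 members were called in limma, as were 0 of all 13530 genes. By the unadjusted p 0 members were higher or lower, against 4.29% and 0.909% of all genes. The smallest p was that of Rrm2, at 2.07, 1.01 and 1.66 TPM in the GKO non-tumours and 0.397, 1.16 and 1.02 TPM in the GKO normal livers (log2 fold change 0.48, SE 0.26, adjusted p = 1.00, limma). That the step differs between WT and GKO mice was not tested. Untreated livers differed little by genotype: 22 of 27 members had positive and 5 negative log2 fold changes in GKO, against 62.4% and 37.6% of all genes. Chaf1b was among the 27 through its GKO values alone. The median was 0.17, against 0.06 over all genes. In limma 0 members, and 0 of all 13099 genes, were called. By the unadjusted p 0 members were higher or lower, against 3.17% and 0.794% of all genes. Orc6, the smallest origin recognition subunit, was at 3.37, 2.11 and 1.76 TPM in GKO and 1.85, 1.18 and 1.71 TPM in WT normal livers (log2 fold change 0.38, SE 0.23, adjusted p = 0.999, limma).

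Set against normal livers of both genotypes, all 6 tumours were above all 6 normal livers for 11 of 31 members (35.5%), against 19.9% of all genes. These were Lig1, Mcm2, Mcm3, Mcm5, Mcm6, Mcm7, Rfc2, Rfc5, Rrm1, Rrm2 and Uhrf1. All 3 GKO tumours were above all normal livers for 18 of 31 members (58.1%), against 30.0% of all genes. The median level of the members above the mean of WT normal livers was 1.59, 1.52 and 0.39 on the log2 scale in WT tumours 1, 2 and 3, and 0.68, 0.61 and 1.06 in the GKO tumours. It was 0.37, 0.93 and 0.43 in the WT non-tumours and 0.43, -0.02 and 0.23 in the GKO non-tumours, so that WT non-tumour 2 stood above 3 of the 6 tumours.

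**Figure D5:**
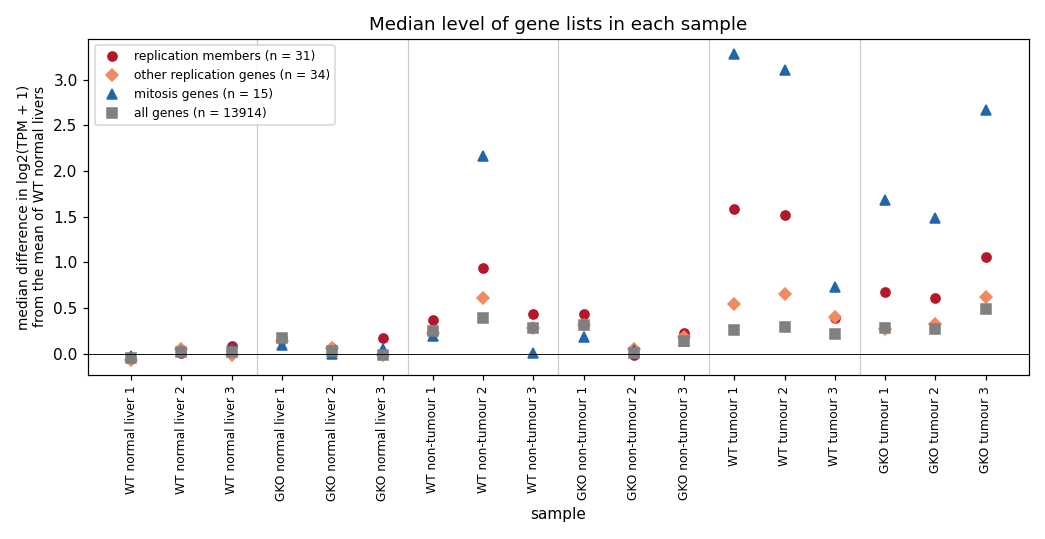
Each symbol is the median, over a list of genes, of the difference in log2(TPM + 1) between 1 sample and the mean of the WT normal livers. Replication genes (red) reach 1.59 and 1.52 in WT tumours 1 and 2 and 0.39 in WT tumour 3, mitosis genes (blue) follow the same order in the tumours with larger values, the 34 other replication genes (orange) spread less, and all genes (grey) stay at or under 0.49.

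Several members departed from the common pattern. Mcm10, which joins the helicase to polymerase alpha, was among the highest members in livers and was lower in most tumours. It was at 15.1, 21.8 and 21.3 TPM in WT normal livers, 27.0, 18.9 and 32.4 TPM in GKO normal livers, 20.996, 16.9 and 37.4 TPM in WT non-tumours and 22.2, 9.03 and 23.7 TPM in GKO non-tumours. In tumours it was at 6.12, 4.51 and 14.0 TPM in WT and 4.07, 6.60 and 22.4 TPM in GKO. The WT tumours lay below all WT non-tumours, with a log2 fold change of -1.56 (SE 0.45, adjusted p = 0.119, limma), and GKO tumour 3 lay within the range of its non-tumours. No other annotated gene overlaps the exons of Mcm10 (GRCm38, chr2:4989714-5012791, minus strand).

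Pola2, the B subunit of polymerase alpha, was at 3.24, 2.63 and 3.04 TPM in the WT tumours and 5.47, 3.67 and 4.62 TPM in the WT non-tumours. It was the 1 member that was higher in every GKO tumour (3.88, 4.85 and 4.11 TPM) than in any WT tumour, as were 9.88% of all genes. Tk1 was at 14.1, 11.9 and 3.73 TPM in the WT tumours and 11.8, 6.68 and 15.1 TPM in the GKO tumours, and its levels in livers, from 5.33 to 18.2 TPM, covered nearly all tumour values. Gins4 was as high in WT non-tumours as in tumours, from 24.7 to 36.8 TPM against 19.1 to 35.3 TPM.

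The 4 members set aside were near the floor of detection. Fen1, the flap endonuclease, had no read in any of the 6 normal livers, and 3 reads would have been 0.182 TPM at most in WT and 0.154 TPM at most in GKO. It had 2, 15 and 1 reads in the WT tumours and 11, 3 and 9 reads in the GKO tumours. Exons of the antisense gene Gm10143 cover 78.8% of its length. Cdc6, which loads the helicase, had 13, 44 and 5 reads in the WT tumours, 21, 6 and 11 reads in the GKO tumours and at most 12 reads in any liver. Pole2 had 18, 6 and 7 reads in the GKO tumours and 1, 4 and 2 reads in the GKO non-tumours. In TPM, Fen1, Cdc6 and Pole2 were higher in every GKO tumour than in any GKO non-tumour, as were 25.7% of the genes tested there. The closest tumour and non-tumour had 3 and 2 reads for Fen1, 6 and 5 for Cdc6 and 6 and 4 for Pole2. These gaps thus rest on very few reads, and in WT mice tumours and non-tumours overlapped. Orc1 had at most 6 reads in any sample. None of the 4 was tested.

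Further genes of the same process were compared in the same way. Of 45 further replication genes, such as the remaining origin recognition subunits, checkpoint adaptors and small polymerase subunits, 37 were tested in WT tumours against WT non-tumours. There 24 had positive and 13 negative log2 fold changes, with a median of 0.10, and 1 rose, against 2.16% of all genes. Without WT tumour 3, 4 rose (Chtf18, Dnmt1, Pold4 and Timeless), against 5.26% of all genes, with a median of 0.15. In GKO mice 29 of 35 were positive and 6 negative, with a median of 0.26, 1 rose and 1 fell, against 7.75% and 3.97% of all genes. The gene that rose in both was Pold4, the smallest subunit of polymerase delta. It was at 434, 415 and 202 TPM in the WT tumours and 25.3, 47.9 and 23.6 TPM in the WT non-tumours (log2 fold change 3.39, SE 0.41, adjusted p = 0.00799, limma). In GKO mice it was at 244, 175 and 91.0 TPM against 23.4, 8.98 and 14.6 TPM (log2 fold change 3.34, SE 0.45, adjusted p = 0.00854, limma). An overlapping gene model on the same strand shares 24.6% of its exonic length. The gene that fell in GKO tumours was Rnaseh2c, a subunit of the ribonuclease that removes ribonucleotides from DNA, with a log2 fold change of -1.58 (SE 0.28, adjusted p = 0.0165, limma). Exons of Kat5 on the opposite strand lie over 24.8% of its length.

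Of 18 regulators of E2F and Rb, 16 were tested in each comparison of tumours with non-tumours. In WT tumours 1 rose, against 2.16% of all genes: Ccne1, which encodes cyclin E1, the partner of Cdk2 at the start of S phase. In GKO tumours 2 were called higher, Ccne1 and Ccna2, against 7.75% of all genes, and both entered the test through their tumour values alone. Between GKO and WT tumours 17 regulators were tested and 0 were called, against 0.0215% of all genes. Ccne1 was at 54.5, 43.5 and 7.66 TPM in the WT tumours and 6.10, 4.87 and 4.12 TPM in the GKO tumours, which did not overlap, with a log2 fold change of -2.22 (SE 0.67, adjusted p = 0.465, limma). Without WT tumour 3 Ccne1 fell in GKO tumours, with a log2 fold change of -3.06 (SE 0.23, adjusted p = 0.00917, limma), as did 0.784% of all genes. This value minus that of the non-tumours was -2.70 (SE 0.48, adjusted p = 0.0389, limma), with 0.473% of all genes called lower. In both fits the WT tumour group was WT tumours 1 and 2 alone, so these errors rest in part on how alike that pair was. Ccne1 was far lower in WT tumour 3 than in that pair, so leaving out that sample makes both values more negative by itself. Of 20 mitosis genes, which act after replication, 19 were tested in WT tumours and 0 were called, although all 19 had positive log2 fold changes with a median of 1.50. In GKO tumours 11 of 14 were called higher, against 7.75% of all genes, but 5 of the 11 (Aurkb, Ccnb1, Mki67, Top2a and Tpx2) had a mean under 0.5 TPM in GKO non-tumours and entered the test through their tumour values alone. The proliferation marker Mki67 was at 9.44, 8.72 and 0.878 TPM in the WT tumours, 3.28, 1.88 and 6.21 TPM in the GKO tumours and 4.09 TPM in WT non-tumour 2, against 0.406 TPM or less in the other non-tumours.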

How the data were processed

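RNA of 18 livers and tumours had been sequenced. Per the labels and the submitters' processing notes, reads were aligned to mm10 with STAR 2.7.3a and counted with featureCounts 2.0.0, and the authors deposited TPM for 54838 genes. The gene annotation and the use of strand in counting are not given in the sources used here. Samples were grouped by the genotype, tissue and treatment of their labels.

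Exonic lengths were read from GENCODE mouse release 21 for the 54809 genes found there. Multiplying TPM by length gave whole reads, with a tolerance of 0.02, for at least 97.99% of low values (at most 30 reads) in each sample. The floor was 3 reads. TPM makes shares of a library, so a gene's value also depends on the other genes.

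The test was that of limma 3.58.1 (R 4.3.3; lmFit and then eBayes, trend on) applied to log2(TPM + 1) in the samples compared. Genes entered it if they averaged 0.5 TPM or more there, and p-values were adjusted over all genes entered (Benjamini-Hochberg), with calls under 0.05. Fold changes are on this scale and understate those of low genes. The procedure was tested on simulated data. Values in every sample are given for members called with the largest changes, the 3 with the smallest p where none was called, and chosen members of each role. Pola2, Tk1, Gins4, Mcm10, Gins2, Cdt1 and the ratios between tumours were described after their values were seen. The members and lists were chosen with earlier results of these data known.

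Promoters and mature miRNAs were from RefSeq (GRCm38.p6), of which 6 members had no promoter, and 3′ UTRs were taken from the GENCODE transcripts. Alternatives changed the pseudocount to 0.1, dropped the filter or raised it to 5 TPM, centred samples on their medians, normalized by quantiles, fitted all 18 samples at once, left out the trend, used voom on the recovered reads, added a replicate block, or left out each sample in turn. Averaging WT tumours 1 and 2 as 1 sample was added after seeing the data. Python 3.11.15 with numpy 2.4.6, pandas 2.3.3 and matplotlib 3.10.9 was used for the rest.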

Additional observations from a re-analysis of the deposited data

How the results depend on the processing

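The direction of the members' median log2 fold change stayed the same under every alternative in both tumour against non-tumour comparisons. The counts of called members were less stable. Apart from the fits without WT tumour 3, the share of all genes called under each alternative is not given here, so these counts have no background beside them. In WT tumours against WT non-tumours the count of 1 became 0 with no filter, with a mean of at least 5 TPM, with voom and with WT tumours 1 and 2 averaged as 1 sample, and 2 with all 18 samples in one fit, and it ran from 0 to 10 when 1 sample was left out. In GKO tumours against GKO non-tumours the count of 7 became 1 with no filter and 0 with a mean of at least 5 TPM, where only 7 members were tested, and it ran from 0 to 8 when 1 sample was left out. In GKO tumours against WT tumours it ran from 0 to 1. After median centring 5 members were called in GKO tumours, without Mcm2 and Tyms. The log2 fold change of E2f1 between GKO and WT tumours turned from 0.11 to -0.1048 without WT tumour 3 and to -0.1696 without GKO tumour 3, in a range of -0.1696 to 0.4353 when 1 sample was left out, and the cause was not tested.

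Samples of different groups share replicate numbers. The deviations of same-numbered samples from their group means correlated at 0.0998, 0.116 and 0.194 across genes between GKO and WT tumours, and in no comparison were all 3 over 0.1, so the numbers were not taken as pairs. With the replicate block 1 member was called in WT tumours, Mcm10 in place of Mcm2, whose adjusted p was 0.0729 (limma, 0.000676 to 0.176 over the alternatives), and 6 in GKO tumours. In every other comparison the count stayed at 0 with the block.

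With 3 samples a group and means of a few TPM, small changes of single members could not be resolved.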

Other observations

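The spread among non-tumours was uneven over the replication genes. Among the 6 non-tumours the highest sample was 9.38 times the lowest for Rrm2, 3.95 for Pcna, 1.63 for Mcm7, 1.49 for Pola2 and 1.28 for Chaf1b, a subunit of the histone chaperone that follows the fork.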
